A study of Mus musculus with 2 samples.

Results

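Long-read RNA sequencing of gastrocnemius, a calf muscle of mainly fast fibres, placed 20280 unannotated loci on the strand opposite to a known gene. They are described here as found in 2 libraries, called replicates 1 and 2, each of 1 female B6CASTF1/J mouse aged 25 days. B6CASTF1/J mice are hybrids of the strains C57BL/6J and CAST/EiJ. The labels name no treatment and no mutation, and each library was made from 2 µg of total RNA. The labels give 1 group with 2 biological replicates that share a donor record, so there is no contrast between conditions. A locus is a gene entry that the deposited tables class as Antisense, that had 1 or more reads and that did not lie on a spike-in. There were 6863 such loci in replicate 1 and 15965 in replicate 2. Loci were matched between the libraries when they lay on the same strand and overlapped by 50% of the length of each. This gave 2548 matched pairs and the 20280 different loci, out of 40349 genes and loci with reads in all.

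An antisense transcript is made from the DNA strand opposite to that of a known gene. Such transcripts are found across mammalian genomes. They can start at the promoter of a neighbouring gene, inside an intron or near the 3′ end of the gene they oppose, and several imprinted genes are silenced by one. Long-read cDNA libraries are usually made by copying RNA from a primer of thymines that pairs with the poly(A) tail. The strand of a read is inferred from its tail, its adapters or the splice sites of its introns.

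The genome-encoded bases at the 3′ end of some of the most read loci are shown first, because loci fell into 2 kinds by them. Each line gives the last 10 bases of the most read model of a locus and the 20 bases that follow it in the genome, on the strand of the locus, 5′ to 3′, from the GENCODE M21 transcripts of the opposite gene in mm10. Capitals mark runs of 6 or more adenines, and the replicate whose locus was read is named.
Pitpnc1, replicate 1, chr11:107211754-107211783, plus strand: acaccttaccAAAAAAAAAAAAAAAAgttt
Neat1, replicate 1, chr19:5834922-5834951, plus strand: agatagaaccAAAAAAAAAAAAAAAAAAAA
2900097C17Rik, replicate 1, chr2:156391505-156391534, plus strand: cacaaaatgtAAAAAAAAAAAAAAAAAAAA
Msrb3, replicate 2, chr10:120783305-120783334, plus strand: aactttggacAAAAAAAAAAAAAAAAtgga
Mcu, replicate 2, chr10:59447979-59448008, plus strand: actaattagtAAAAAAAAAAAAAAAAAAAA
Satb1, replicate 2, chr17:51812311-51812340, plus strand: gagaggaattAAAAAAAAAAAAAggtaccc
Ptp4a2, replicate 1, chr4:129839131-129839160, minus strand: AAAAAAAAAAgcctactacttctgaggcca
2900097C17Rik, replicate 2, chr2:156391566-156391595, plus strand: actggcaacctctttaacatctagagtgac
Klhl31, replicate 1, chr9:77656504-77656533, minus strand: gttccttttctgagagtaggattttatgtt
Tmem250-ps, replicate 1, chr2:26138374-26138403, plus strand: ggtgggccctcacatgtccacaaagaccat
Cdv3, replicate 1, chr9:103355304-103355333, plus strand: ttctttatccctaagggaaaagaaatgtaa
The first 6 models stop at the base before an encoded run of adenines. In Neat1 this model ends inside the longer span of the locus. The Ptp4a2 locus takes the run in as its last 10 bases. The Klhl31, Tmem250-ps and Cdv3 loci, which are among the most read, have no such run. The 20 bases after them held 5, 8 and 11 adenines. The Klhl31 locus of replicate 2, which is not printed, had 8 adenines there and at most 4 in a row. At 2900097C17Rik the libraries differed: the locus of replicate 1, with 134 reads, ends at a run, and that of replicate 2, with 625 reads, ends further downstream with none.

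Across all loci whose following 20 bases lay inside an exon of the opposite gene, adenines were frequent there. These were 1417 of the 3493 loci of replicate 1 that overlapped an opposite exon, and 3398 of 6937 in replicate 2. At least 12 of the 20 bases were adenines after 512 of these loci in replicate 1, or 36.1%, and after 1352 in replicate 2, or 39.8%. The same was true of 1.65% of all 20-base windows on the antisense strand of the longest transcript of the same genes in replicate 1, and of 1.68% in replicate 2. Loci with 5 or more reads ended there more often, with 46.4% in replicate 1 and 51.1% in replicate 2. For loci with 1 read the shares were 31.7% and 35.3%. Among matched loci the share was 40.6% in replicate 1 and 40.7% in replicate 2, and among loci without a match 32.4% and 39.6%.

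**Figure D1:**
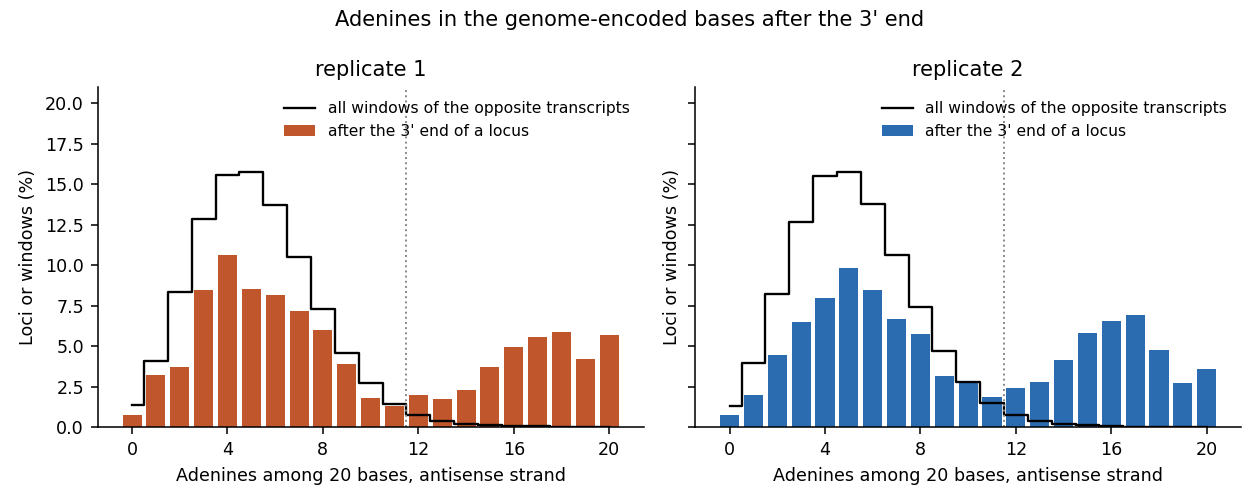
Number of adenines among the 20 genome-encoded bases after the 3′ end of antisense loci (bars, % of the readable loci of that library) and in all 20-base windows on the antisense strand of the opposite transcripts (black line, % of windows). The windows have 1 peak, at 5 adenines. The loci have a second peak above 12 (dotted line), and the loci with 12 or more make up 36.1% of readable loci in replicate 1 and 39.8% in replicate 2.

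A 30-base window across the end, as printed above, held a run of 6 or more adenines for 467 of 920 readable loci in replicate 1, or 50.8%, and for 1119 of 2307 in replicate 2, or 48.5%. Of all such windows of the opposite transcripts, 1.92% and 1.93% held one. The hexamers AATAAA or ATTAAA, the usual signals for cleavage and polyadenylation, lay on the locus strand in the last 50 bases of 11.2% of 1386 readable loci in replicate 1 and 11.1% of 3244 in replicate 2. They lay in 4.55% and 4.67% of all 50-base windows of the opposite transcripts. These shares cover ends inside an opposite exon alone. Ends inside introns were not read, since no genome sequence was used here. Whether reads at adenine runs came from the primer pairing with the run was not tested.

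Antisense loci took 22984 reads of replicate 1, which was 2.15% of its 1069771 mouse reads (Clopper-Pearson 95% interval 2.12% to 2.18%). In replicate 2 they took 61500 of 1557594 reads, or 3.95% (3.92% to 3.98%). The mean share was 3.05% ± 1.27 (SD, n = 2), and the intervals, which cover counting error only, do not overlap. Intergenic unannotated loci took a smaller share, 0.292% in replicate 1 and 0.723% in replicate 2. Most antisense loci were thinly read: 4611 of 6863 in replicate 1 and 9872 of 15965 in replicate 2 rested on 1 read. Loci with 10 or more reads numbered 171 and 685. The 10 most read loci held 36.1% of the antisense reads of replicate 1 and 20.7% of those of replicate 2. Loci of a library can overlap each other on the same strand. When overlapping loci of both libraries were joined, the 6863 loci fell into 6705 stretches and the 15965 into 15290. Loci of 1 library can be joined there through a locus of the other. The median locus had 1796 exonic bases in replicate 1 and 697 in replicate 2. A few were stubs, with 107 loci in replicate 1 and 738 in replicate 2 under 100 bases long.

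The tissue itself was read as muscle: all 8 skeletal muscle markers had reads in both libraries, at 364 to 157924 CPM (reads of a gene scaled to the mouse reads of its library) in replicate 1 and 1040 to 75267 CPM in replicate 2. Of 16 markers of endothelium, blood, fat, nerve and leukocytes, 15 had reads in replicate 1 and 16 in replicate 2, at no more than 614 and 224 CPM. Markers of fibroblasts and tendon are not among these 16, and they ranged from scarce to abundant. Col3a1 had 2851 sense reads in replicate 1 and 1099 in replicate 2, and Tnmd had 5 and 89. Spike-in RNAs of known sequence gave a measure of strand. The 53 spike-ins with sense reads in replicate 1 had 30717 sense reads and 0 antisense reads, which allows a share of up to 0.00977%. The 48 of replicate 2 had 30881 sense and 0 antisense reads, which allows up to 0.00971%. A few other spike-ins had antisense reads alone, as described in the closing observations.

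Finding the same locus again depended on how many reads it had. Of loci with 1 read, 28.6% in replicate 1 and 7.28% in replicate 2 had a match in the other library. The shares were 50.3% and 23.0% at 2 to 4 reads, and 70.7% and 43.2% at 5 to 9 reads. From 10 to 49 reads they were 68.9% and 53.5%, and at 50 or more 60.9% of 23 loci and 60.0% of 100 loci. Both ends were identical to the base in 631 of the 2548 pairs and 1 end in a further 1424. The opposite gene was the same in 2516 pairs. Reads of the paired loci had a Spearman correlation of 0.53 and, on the log2 scale, a Pearson correlation of 0.66 over 2548 pairs, which share libraries, depth and position. A match was found for 37.1% of antisense loci and 33.9% of intergenic loci in replicate 1, and for 16.0% and 13.8% in replicate 2. Genes that the annotation already lists as antisense were found in both libraries more often, 70.9% of 357 in replicate 1 and 45.5% of 556 in replicate 2, though these are matched by name and not by overlap.

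**Figure D2:**
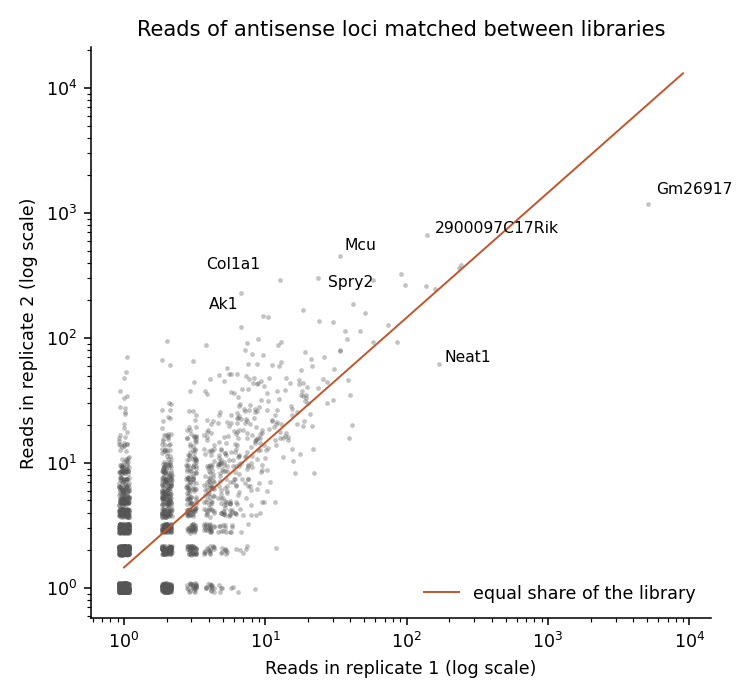
Reads in replicate 1 (x axis) and replicate 2 (y axis) of each of the 2548 matched antisense loci, both on log scales, with a small random shift so that equal counts can be seen. The line marks equal shares of both libraries: Gm26917 and Neat1 lie below it, and Mcu, Spry2, Col1a1 and Ak1 lie above it.

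A locus without a match was often not absent from the other library. Of the 4315 unmatched loci of replicate 1, 1609 overlapped an antisense locus of replicate 2 with other boundaries. The same held for 1870 of the 13417 unmatched loci of replicate 2. A further 60 and 42 overlapped a locus that the other library classed as intergenic. The most read example lies opposite to Klhl31, which encodes a kelch-family protein of skeletal muscle. Its locus in replicate 1, chr9:77656524-77660127 on the minus strand, had 1850 reads, and its locus in replicate 2, chr9:77656693-77657523, had 6903. The second covers less than 50% of the first, so the rule left them apart. A span is that of the deposited gene line, and the models of a locus can reach beyond it.

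Antisense loci lay inside the span of the opposite gene, reaching neither end, in 6104 cases in replicate 1 and 14587 in replicate 2, or 88.9% and 91.4%. They reached or ran past its 3′ end alone in 327 and 613 cases, its 5′ end alone in 319 and 532, and both in 74 and 90. A locus that stopped exactly on the annotated end is counted as reaching it. Here the opposite gene is the annotated gene on the other strand that shares the most exonic bases, else the most span. It was missing for 39 and 143 loci, which oppose other unannotated genes or none. Protein-coding genes made up 92.1% of the 4323 opposite genes in replicate 1 and 90.7% of the 7079 in replicate 2. An exon of the opposite gene was overlapped by 50.9% of loci in replicate 1 and 43.5% in replicate 2, a mean of 47.2% ± 5.26 (SD, n = 2). When at least 50% of the exonic bases of the locus had to lie in opposite exons, the shares were 17.4% and 19.3%.

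**Figure D3:**
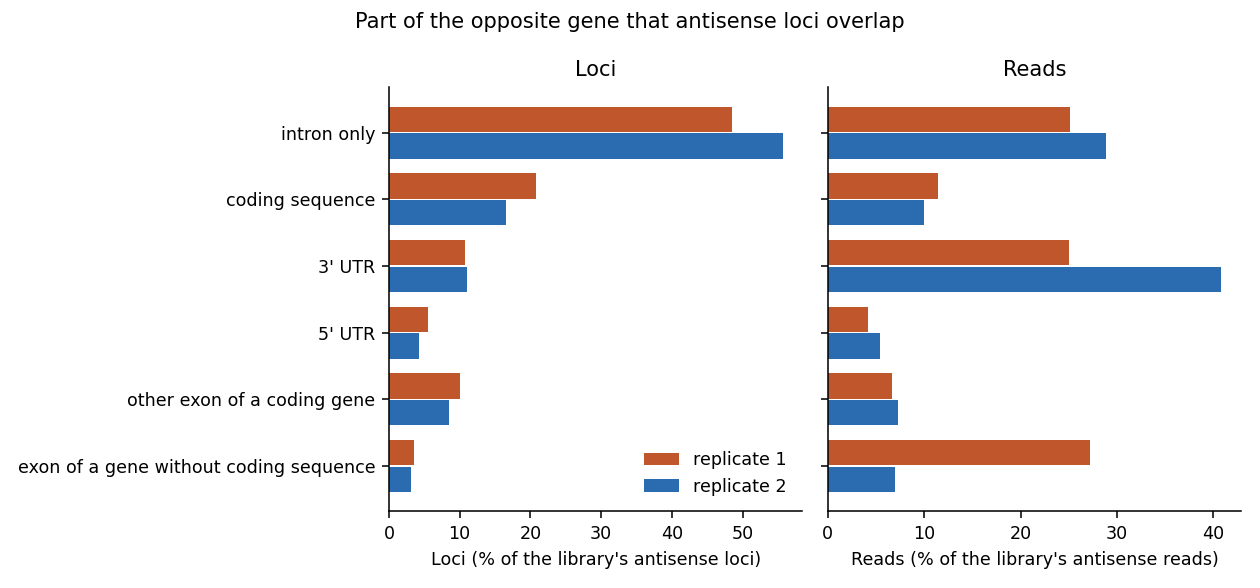
Share of antisense loci (left) and of their reads (right), in % of each library, by the part of the opposite gene they overlap. Loci that touch no opposite exon are drawn as intron only, and the others by the exon part with the most shared bases, even where most of the locus lies in an intron. Intron-only loci were 48.5% of loci in replicate 1 and 55.7% in replicate 2, and 25.1% and 28.8% of reads. Loci sharing most exonic bases with a 3′ UTR were 10.8% and 11.1% of loci and had 25.0% and 40.9% of reads.

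Reads were unevenly divided between these classes. Loci that touched introns alone were the largest class by number, 3331 in replicate 1 and 8885 in replicate 2, with 5772 and 17724 reads. Loci opposite to 3′ UTRs were 741 and 1765 in number and held 5753 and 25125 reads. Without the most read locus, which opposes Klhl31 in both libraries, they still held 3903 and 18222 reads. Among loci with 10 or more reads, 71 of 171 in replicate 1 and 294 of 685 in replicate 2 were opposite to a 3′ UTR, against 24 and 162 that touched introns alone. Exonic bases covered in coding genes fell in 3′ UTRs for 41.9% of them in replicate 1 and 47.4% in replicate 2, where the annotation of the same genes has 29.9% and 29.8% of its exonic bases. Coding sequence took 23.9% and 19.01% of covered bases, against 33.4% and 33.8% of annotated ones. Opposite to genes without coding sequence there were 245 and 496 loci. These held 6255 and 4267 reads, of which 4993 and 1281 belonged to 1 locus opposite to Gm26917.

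**Figure D4:**
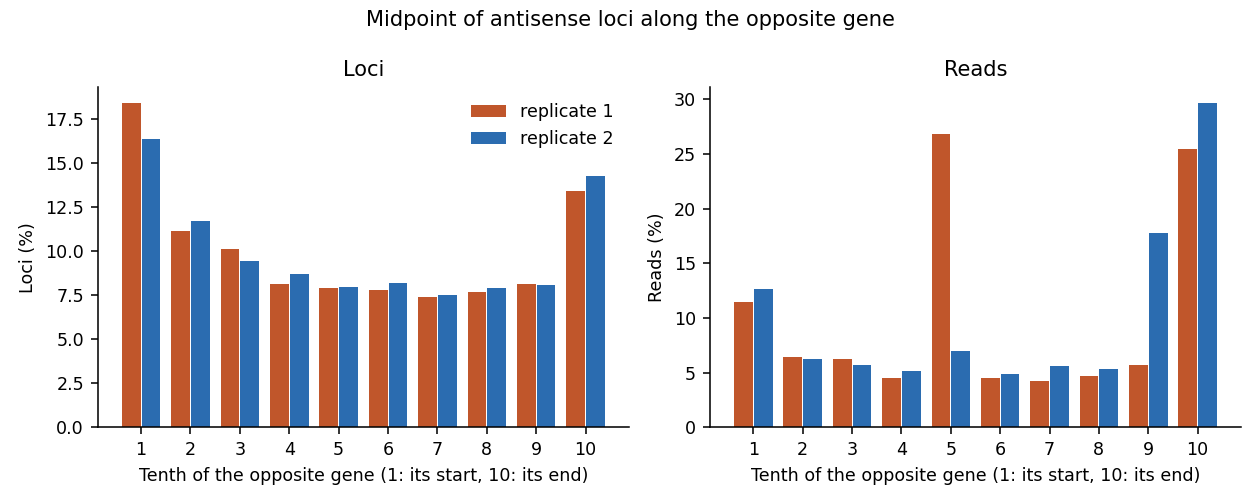
Midpoint of each antisense locus along its opposite gene, in 10 equal parts from the start (part 1) to the end (part 10) of the gene, as % of loci (left) and of their reads (right) per library. Loci are most frequent in part 1 (18.4% in replicate 1, 16.4% in replicate 2) and part 10 (13.4% and 14.3%). Part 10 has 25.5% and 29.6% of the reads, and in replicate 1 part 5, which holds the Gm26917 locus, has 26.8%.

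Along the opposite gene, loci were most frequent at both ends. With the gene cut into 10 equal parts, part 1 held 1253 loci in replicate 1 and 2588 in replicate 2, part 10 held 913 and 2256, and each of the others 503 to 758 and 1185 to 1852. Many ends fell exactly on an annotated end of the other strand. The 5′ end of a locus was the annotated 3′ end of an opposite transcript for 469 loci in replicate 1, or 6.83%, and 1068 in replicate 2, or 6.69%. Only 19 and 38 more lay 1 to 20 bases away. The 3′ end of a locus was an annotated opposite 5′ end for 246 loci, or 3.58%, and 459, or 2.88%, with 8 and 15 more within 20 bases. Whether ends were set to annotated positions when the models were built is not stated in the labels or file headers. A gene on the same strand ended within 1000 bases upstream of 138 loci in replicate 1 and 278 in replicate 2, and within 5000 bases of 581 and 1253.

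Most loci had 1 exon. All models were single-exon for 6405 of 6863 loci in replicate 1, or 93.3%, and 15115 of 15965 in replicate 2, or 94.7%, a mean of 94.0% ± 0.954 (SD, n = 2). Of the matched pairs, 2337 were single-exon in both libraries and 120 were spliced in both. Genes annotated as antisense were single-exon in 51.5% and 58.1% of cases. The 458 and 850 spliced loci had mostly 2 exons, 318 and 594 of them, and at most 23 and 17. Models with an intron carried 873 antisense reads in replicate 1 and 1789 in replicate 2, since the most read models of these loci were often unspliced.

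A subset of the spliced loci repeated the splicing of the gene they opposed. Every intron of the locus was, to the base, an annotated intron of the other strand in 95 of 458 spliced loci in replicate 1, or 20.7%, and 138 of 850 in replicate 2, or 16.2%. These loci held 284 and 578 reads. No intron of an antisense locus was an annotated intron on its own strand. Among them was the locus opposite to Crebbp, which encodes a histone acetyltransferase, at chr16:4128444-4213997 on the plus strand. It had 19 reads in replicate 1, where all 5 introns mirrored those of Crebbp, and 31 in replicate 2, where 5 of 6 did. Crebbp had 4 and 10 sense reads. Other mirrored loci in replicate 1 opposed Mypn, which encodes a Z-disc protein, with 25 reads, and Myot, another Z-disc gene, with 10. In replicate 2 they opposed Ubl3 with 93 reads, Mybpc1, a myosin-binding protein gene, with 62, and Myot with 19.

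Intron ends were read where both lay in an exon of the opposite gene, as when 1 of its transcripts keeps the intron. This covered only 57 of 795 introns in replicate 1 and 89 of 1417 in replicate 2, and the ends of the others were not read. Introns almost always begin with GT and end with AG on the transcribed strand, which reads as CT and AC on the other strand. On the strand of the locus, 37 and 63 introns had GT-AG ends, 5 and 11 had GC-AG, and 14 and 14 had CT-AC. Those with CT-AC were mirrored introns of the opposite gene in 14 of 14 and 11 of 14 cases, and none of the GT-AG introns was. The capitals below mark the intron's first and last pair of bases, with 6 exonic bases outside them, on the strand of the locus.
Slc9a2, GT-AG, chr1:40681249-40681718, minus strand, intron start: agttcgGTgggtgtga
Slc9a2, intron end: ccccccgcAGgctcct
Gm36981, GT-AG, chr3:84061805-84062551, plus strand, intron start: gaagtgGTaagtagga
Gm36981, intron end: tgctttacAGacaagc
Nr2f2, CT-AC, mirrored, chr7:70358291-70359887, plus strand, intron start: gtacagCTgcaggagg
Nr2f2, intron end: aggccgatACcttccc
Each of these introns was found in both libraries. The model with the Slc9a2 intron had 4 reads in replicate 1 and 11 in replicate 2, that of Gm36981 had 3 and 5, and that of Nr2f2, which encodes a nuclear receptor, had 8 and 10.

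Among matched loci, the one with the most reads opposed Gm26917, annotated as a lincRNA, at chr17:39843013-39846245 on the minus strand. Its ends were identical in both libraries. It had 4993 reads in replicate 1 and 1281 in replicate 2, against 17 and 6 sense reads of Gm26917. Next to it, CT010467.1, annotated as ribosomal RNA, was opposed on the plus strand by 143 and 272 reads and had 0 sense reads in both. An RNA of 0 reads could still stand at up to 2.80 CPM in replicate 1 and 1.93 CPM in replicate 2. These are repeated sequences with near-identical copies, and no label or header says how reads were shared among copies, so both values are uncertain.

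Some of the most read loci opposite to 3′ UTRs were close to equal in both libraries. Sept2, which encodes a septin, was opposed at chr1:93507713-93509733 on the minus strand by 169 and 250 reads, or 159 ± 1.79 CPM, against 11 and 14 sense reads. Pitpnc1, a phosphatidylinositol transfer protein gene, was opposed by 241 and 380 reads, or 235 ± 13.2 CPM, against 39 and 50 sense reads. Their log2 ratios of replicate 1 over replicate 2 were -0.02 and -0.11, and Fisher's exact test called neither (adjusted p of 0.961 and 0.543). A locus opposite to Cnnm4, which encodes a magnesium transporter, likewise had 74 and 120 reads (adjusted p = 0.701), with 3 and 2 sense reads.

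Other matched loci were several times more frequent in replicate 2. Mcu, the pore of the mitochondrial calcium uniporter, was opposed by 31 reads in replicate 1 and 451 in replicate 2 at its 3′ UTR, a log2 ratio of replicate 1 over replicate 2 of -3.30. Sense reads of Mcu were 7 and 21. Spry2, an inhibitor of receptor tyrosine kinase signalling, was opposed by 23 and 319 reads at chr14:105891947-105892595, with identical ends and a log2 ratio of -3.22, and had 1 and 3 sense reads. Col1a1, a chain of type I collagen, was opposed by 12 and 306 reads at its 3′ end, a log2 ratio of -4.07, and Ak1, the adenylate kinase of muscle, by 7 and 225, a log2 ratio of -4.37. For these last genes the sense strand was far more abundant, with 1229 and 1629 reads of Col1a1 and 5741 and 7954 of Ak1. Adjusted p-values of Fisher's exact test for these 4 loci were 3.82e-64, 1.56e-44, 1.61e-51 and 1.09e-39. With the spread that edgeR estimated between the libraries, its exact test gave adjusted p-values of 0.172, 0.202, 0.0607 and 0.0457. That spread was estimated from the same 2 libraries taken as 1 group, so it takes in the differences being tested. A locus that edgeR's exact test did not call is therefore not shown to be equal in both libraries.

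Other matched loci of high read number were also more frequent in replicate 2. Transcription factor gene Nfia was opposed by 102 and 258 reads at chr4:98111218-98113603 and by 25 and 139 reads in the adjoining stretch, with 12 sense reads in each library. Scn4b, a sodium channel subunit, was opposed by 60 and 271 reads, the kinase gene Gsk3b by 43 and 181, 2900097C17Rik by 134 and 625, and Tmem250-ps by 91 and 335. All 6 had negative log2 ratios, between -1.91 and -0.79. Fisher's exact test called all 6, and edgeR's exact test called none of them (adjusted p = 1 for each). Neat1, the long noncoding RNA that scaffolds nuclear paraspeckles, was opposed by 158 reads in replicate 1 and 58 in replicate 2, so it was higher in replicate 1, with a log2 ratio of 1.98. Fisher's exact test gave an adjusted p of 2.25e-20 and edgeR's exact test one of 0.935. Its own sense reads ran the other way, 19 and 306.

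Spliced loci held 6474 reads in replicate 1 and 12272 in replicate 2, of which the models with an intron carried the smaller part given above. Mbnl1, a splicing regulator, was opposed by 51 reads in replicate 1 and 152 in replicate 2, with 1 of 2 introns mirrored in replicate 1. Klhl24 was opposed by 49 and 105 reads (adjusted p = 0.0807). Sod2, the mitochondrial superoxide dismutase, had a spliced locus of 180 reads in replicate 2 and no match in replicate 1, where 36 reads overlapped it. The spliced Satb1 locus of 381 reads in replicate 2 was overlapped by 20 reads of replicate 1.

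Known genes differed in how their strands compared. Antisense reads outnumbered sense reads for 878 of 4323 opposite genes in replicate 1 and 2023 of 7079 in replicate 2. Of 250 genes with 10 or more antisense reads in both libraries, 107 had more antisense than sense reads in both. They were led by Klhl31 with 1850 and 6908 antisense against 74 and 108 sense reads, Gm26917 and Cdv3 with 144 and 989 against 32 and 23. Dmd, the dystrophin gene, was also among them, with 52 and 182 antisense against 10 and 13 sense reads. Counts are whole reads and were not divided by length, and a read that covers part of a long transcript counts as 1. Genes with no sense read at all were 566 of the opposite genes in replicate 1 and 980 in replicate 2. They are all counted in the 878 and 2023, since an opposite gene has 1 or more antisense reads by definition.

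**Figure D5:**
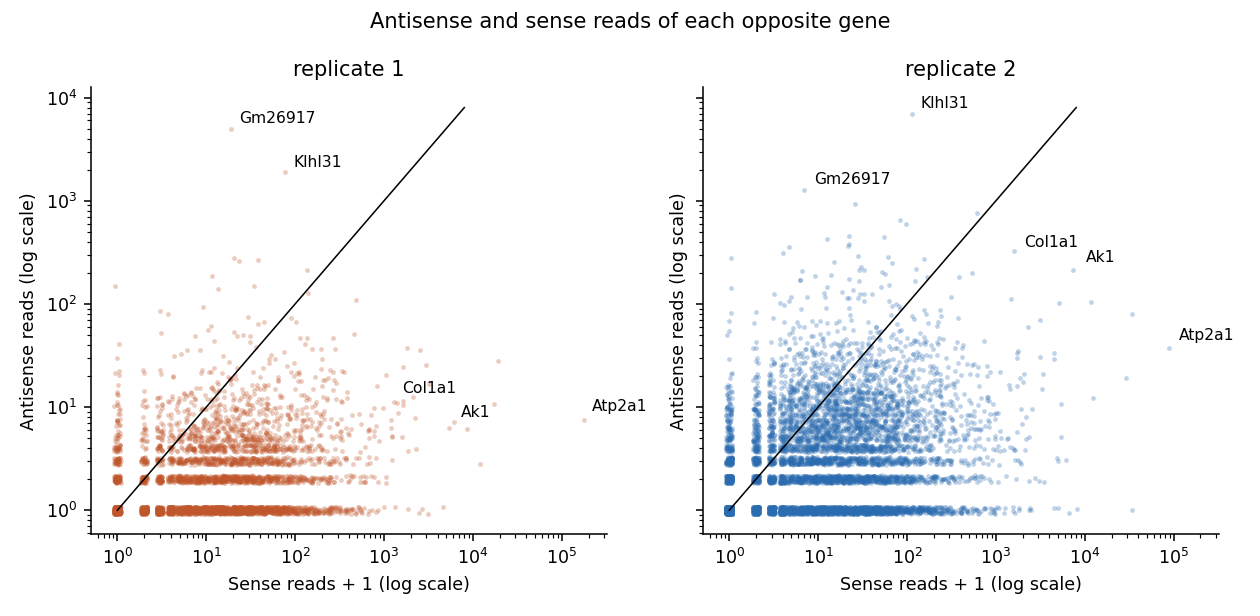
Antisense reads (y axis) and sense reads plus 1 (x axis) of each opposite gene with 1 or more antisense reads, on log scales with a small random shift, in replicate 1 (left, 4323 genes) and replicate 2 (right, 7079 genes). The line marks equal values. Klhl31 and Gm26917 lie above it in both libraries, and Atp2a1, Ak1 and Col1a1 far below it.

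The most abundant of the opposite genes had few antisense reads. Abundant genes with no antisense locus in a library are left out of these shares. The 6 opposite genes with 5000 or more sense reads in replicate 1 had 60 antisense reads beside 230487 sense reads, or 0.0260%. The 14 in replicate 2 had 614 beside 265390, or 0.231%. Atp2a1, the calcium pump of fast fibres, had 8 antisense reads beside 168943 sense reads in replicate 1, and 39 beside 87863 in replicate 2. Across all loci, reads of the locus and of its opposite gene were weakly related, with a Spearman correlation of 0.14 and a Pearson correlation of 0.14 on the log2 scale, in each library, over 6824 and 15822 loci. For loci with 10 or more reads the Spearman correlations were -0.02 over 170 and 0.01 over 674. These points share a library and its depth, and counts of 1 read are most of them.

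Long genes held several loci. In replicate 1, 68.1% of opposite genes had 1 locus, and in replicate 2, 53.2%. The Spearman correlation of gene span with the number of loci was 0.38 over 4323 genes and 0.46 over 7079. Dmd, which spans 2257 kb, had the most in both, 15 loci in replicate 1 and 51 in replicate 2. The giant sarcomeric protein gene Ttn had 12 and 28, and the nuclear receptor gene Rora 14 and 26. The median opposite gene spanned 44.6 kb in replicate 1 and 38.9 kb in replicate 2, against 21.7 and 20.8 kb for all known genes with reads.

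Muscle genes were opposed at varied rates. Of all 15521 known genes with reads, 44.3% had an antisense locus in either library and 21.6% in both. Filament and Z-disc genes had one in both libraries for 21 of 29 members. They were led by Ttn with 49 antisense reads in replicate 1 and 191 in replicate 2, Mybpc1 with 27 and 104, and nebulin gene Neb with 38 and 66. Genes of excitation-contraction coupling had one in both for 11 of 20 members, led by Trdn with 15 and 71, glycolysis and glycogen breakdown for 11 of 18, led by Pfkm with 39 and 56, and myogenic and MEF2 factors for 8 of 12. Over all known genes with reads, antisense reads were 2.11% of the sense reads in replicate 1 and 3.96% in replicate 2. Filament and Z-disc genes stood below this, at 0.267% and 0.421%, as did excitation-contraction coupling, at 0.532% and 1.24%. Glycolysis and glycogen breakdown did too, at 0.235% and 0.354%. In the list of myogenic and MEF2 factors, antisense reads were 8.14% and 33.3% of the sense reads. The list had only 590 and 559 sense reads in all, and some members had almost none. Six4 had 28 antisense and 2 sense reads in replicate 2, and Myf5 had 30 and 3. Mef2c and Tead1 each had 11 and 43 antisense reads.

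In fast-fibre genes 7 of 15 were opposed in both libraries, in slow-fibre genes 5 of 13, in creatine and adenylate buffering 3 of 8, and in the respiratory chain and ATP synthase 18 of 55. Their antisense reads were 0.0189% to 0.269% of the sense reads in replicate 1 and 0.113% to 0.334% in replicate 2. Genes known to be imprinted or controlled by antisense RNA had a locus in both libraries for 5 of 17 members with reads. Ube3a, whose paternal copy is silenced in neurons by an antisense transcript, had 1 and 35 antisense reads. Genes of other cell types were opposed in both libraries for 4 of 15 in fibroblasts and tendon, 6 of 10 in endothelium, 1 of 7 in fat, and 0 of 5 in blood, 0 of 6 in nerve and 0 of 6 in leukocytes. These counts were not adjusted for the length or read number of the genes. In whole muscle, fewer cells of a type and less RNA per cell cannot be told apart.

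Antisense loci that could be set side by side were more often lower than higher in replicate 1. Fisher's exact test set each locus's reads against the rest of the library, and p-values were adjusted by Benjamini and Hochberg's method over all 9980 genes and loci that had at least 10 reads in the libraries together. It compares 2 libraries and not conditions, and its p-values cover counting error only. Of the 575 matched loci tested, 130 were called at an adjusted p of 0.05, or 22.6%, against 29.5% of all genes and loci and 26.8% of known genes. They were 6 higher and 124 lower in replicate 1, while 14.3% of everything tested was higher and 15.2% lower. The median log2 ratio of replicate 1 over replicate 2 was -0.90 for the matched loci and 0.18 for known genes, and the total share given above differs in the same direction.

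Another 367 loci, which had no match, entered the test with reads counted in 1 library alone. With 10 or more reads there and 0 in the other library they had to differ, and all 367 were called, 55 higher and 312 lower in replicate 1. With them the count was 497 of 942 antisense loci, or 52.8%, of which 61 (6.48%) were higher and 436 (46.3%) lower. That count follows from how loci were matched and is not to be read against the share of known genes. When overlapping loci of both libraries were joined and their reads summed, 317 of 987 stretches were called, or 32.1%, 6 higher and 311 lower in replicate 1. The Klhl31 stretch then had 1850 and 6903 reads, a log2 ratio of -1.36, and Cdv3 142 and 987 reads, a ratio of -2.25. Ptp4a2, a phosphatase gene, had 107 and 772 (-2.30), Msrb3, a methionine sulfoxide reductase gene, 72 and 593 (-2.49), and Mn1 75 and 314 (-1.52). These 5 had stood as separate loci with no match, which gave ratios of opposite sign for the locus of each library. At the spread that edgeR estimated over all genes (a dispersion of 0.224), its exact test called 60 of 942 antisense loci, or 6.37%, and 0.731% of all genes and loci. As that spread came from the 2 libraries being compared, these counts are not an independent check.

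A locus opposite to an intron of Pitpna, a phosphatidylinositol transfer protein gene, stayed in 1 library. At chr11:75599649-75599763 on the minus strand it had 215 reads in replicate 1 and 0 in replicate 2, where no antisense locus overlapped it. With the floor of 3 reads per library for a count of 0, it was at least 104-fold higher in replicate 1. It is 115 bases long with 1 exon, and Pitpna had 137 and 198 sense reads. Its 5′ base is also the 3′ end of Gm12338, an annotated processed pseudogene on the same strand, which had 82 reads in replicate 1 and 1077 in replicate 2. Fisher's exact test gave an adjusted p of 2.00e-82, and edgeR's exact test one of 9.34e-05.

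Mitochondrial DNA, which is transcribed from both strands, held 9 loci in replicate 1 and 17 in replicate 2. On the plus strand these were 5 and 7 loci with 18 and 164 reads, and on the minus strand 4 and 10 with 5 and 56. The locus opposite to mt-Nd6 had 1 read in replicate 1, at chrM:13565-14070, and 50 in replicate 2, at chrM:13565-14145. In replicate 1 the stretch chrM:14070-14145 was a separate locus, opposite to mt-Te, with 5 reads and no match. A locus opposite to mt-Tn in replicate 1, at chrM:5018-5326, had 4 reads. Its match in replicate 2, at chrM:5159-5326, was assigned to mt-Ty and had 14 reads. The locus opposite to mt-Tn in replicate 2, at chrM:5016-5159, had 55 reads and no match.

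Some loci may be known elsewhere. With RefSeq's gene spans on GRCm38.p6, 245 loci of replicate 1 and 482 of replicate 2 overlapped a RefSeq gene on their own strand, or 3.57% and 3.02%. These included the Pitpnc1 locus, which overlaps Gm39425, and a locus opposite to the actin gene Actb with 47 and 206 reads, which overlaps Gm38733. Known M21 genes were overlapped on the same strand by 93 and 197 loci. MicroRNA hairpins of RefSeq lay inside 13 loci of replicate 1 and 17 of replicate 2, counted once per hairpin and locus. The hairpin was on the opposite strand in 12 and 16 of these, as for Mir1191, inside a locus of 84 reads in replicate 2.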

How the data were processed

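The authors deposited raw read counts per transcript model, and gene models that name TALON as their source, with the mm10 assembly and GENCODE M21 annotation per the labels and the deposited notes. Neither names the platform, the aligner or the read filters. Library totals were 1069771 reads in replicate 1 and 1557594 in replicate 2 without spike-ins. Loci took their span from the deposited gene lines, and opposite genes, exons and introns came from M21. Bases were read from M21 transcripts (48071 used, 9 left out for length) and RefSeq tables. Fisher's exact test was two-sided, with 0.5 reads added for log2 ratios. On simulated libraries with counting error alone it recovered 45.5% of 200 features changed 2-fold with 7 false calls, and 85.0% at 4-fold with 5. The changed features were drawn from those with more reads than the minimum of the test. As the simulation held no spread between libraries, its false calls do not give the error rate of the test in these data. Tools were Python 3.11.15, scipy 1.17.1, pandas 2.3.3, R 4.3.3, edgeR 4.0.16 and DESeq2 1.42.0 (size factors). Alternatives changed the overlap, read minimum, span, scaling, filter and test and left out each replicate.

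The members and lists were chosen with earlier results of these data known. Named loci were the 15 matched loci with most reads (1 is not reported here), the 8 spliced loci with most reads beyond these, the 4 most read unmatched loci of each library and the 5 largest ratios each way past the test. Crebbp, Mypn, Myot, Ubl3, Mybpc1, Slc9a2, Gm36981, Nr2f2, Dmd, Rora, Actb, Atp2a1 and the loci of mitochondria and microRNAs were chosen after their values were seen, as were the sequences at 3′ ends and introns. P-values of Fisher's exact test, intervals and floors cover counting error only, and not the spread between mice. The p-values of edgeR's exact test use a spread estimated from the same 2 libraries that it compares.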

Additional observations from a re-analysis of the deposited data

Results flagged for a closer look

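Reads on the antisense strand of spike-in RNAs, which lie outside the loci described, stood above the limit that a count of 0 allows. ERCC-00009 had 203 antisense reads in replicate 1 and 145 in replicate 2, ERCC-00116 had 67 and 36, and ERCC-00059 had 5 in replicate 1. None of these had a sense read. Together with spike-ins of 1 to 3 reads, antisense reads were 276, or 0.891% of spike-in reads, in replicate 1 and 186, or 0.599%, in replicate 2, while the spike-ins with sense reads had 0 antisense reads. The cause was not tested.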

How the results depend on the processing

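No paired analysis was possible because the series has 1 group. The number of loci found in both libraries was 4103 with any overlap, 4026 as joined stretches (chosen after seeing the data), 1056 with at least 2 reads in each and 293 with at least 5, against 2548. Single-exon shares were 92.8% of models, 96.6% of reads, 91.9% of loci with 2 or more reads and 89.3% with 5 or more, against 94.0%. Loci with every intron mirrored were 22.9% of spliced loci within 10 bases, against 18.5%, and loci with 50% of their bases in opposite exons 18.3%, against 47.2% with 1 base. Calls between libraries were 252 with 20 or more reads, 60 with edgeR's exact test (422 at an unadjusted p under 0.05) and 317 as joined stretches, against 497. Leaving out a replicate gave 2.15% to 3.95% for the share of reads, 93.3% to 94.7% for 1 exon, 16.2% to 20.7% for mirrored introns, 43.5% to 50.9% for opposite exons and 0.138 to 0.140 for the Spearman correlation with the opposite gene. Scaling with edgeR's TMM and DESeq2's size factors moved the median of all genes and loci by -0.13 and -0.10. As joined stretches, the loci of replicate 1 at Klhl31 (-1.36), Cdv3 (-2.25), Ptp4a2 (-2.30) and Mn1 (-1.52) reversed, since reads of the other library were then counted. The remaining alternatives kept direction and side of the threshold, except that edgeR's exact test ended the call for 13 of 29 named loci and both scalings called Klhl24. Other causes were not tested. A locus of 1 read is at the limit of these depths, so its absence from the other library shows no difference.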
